A study of Mus musculus with 8 samples.

Results

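The peaks described here are all those on mouse chromosomes 1 and 11 in 4 lists of ChIP-seq peaks, for CTCF and for the cohesin subunit Smc3, in C59 cells and in wild-type (WT) cells of the JM8.N4 embryonic stem cell line. They number 38305 of 254001 peaks, or 15.1%. Chromosome 1 held 5869 C59 CTCF peaks, 6278 WT CTCF peaks, 2107 C59 Smc3 peaks and 3137 WT Smc3 peaks. Chromosome 11 held 6891, 7912, 2347 and 3764 peaks in the same order of lists. Each chromosome was set against chromosomes 2 to 7, 9, 10 and 12 to 19, called the other 16 autosomes, in the same list. The comparison asks whether peaks of chromosomes 1 and 11 lie on a raised background in either line, and whether any rise covers the whole chromosome or a segment of it. Both chromosomes were picked because their background had already been seen to stand apart in these lists. Background by chromosome, the share of peaks found again in the other line and their like are therefore given as descriptions, without tests.

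C59 is a clone homozygous for 2 knock-ins, a FLAG-Halo tag on CTCF and a SNAPf-V5 tag on Rad21, a further cohesin subunit. WT is JM8.N4 without the tags. Both lines grew without feeder cells, in medium with serum and leukaemia inhibitory factor (LIF), and were cross-linked with formaldehyde. C59 stands for 1 clone and each line gave 1 library per protein, so a difference between the lines cannot be told apart from a difference between clones, cultures or libraries. Input and IgG reads were not analysed here.

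With its zinc fingers CTCF recognises a long DNA motif, and it marks insulators and the borders of chromatin loops. Cohesin, a ring-shaped complex, tethers sister chromatids and draws out loops of chromatin, and it stops at many sites that CTCF occupies. Mouse embryonic stem cells in culture are known to gain whole chromosomes, among them chromosomes 1, 8 and 11. A gained chromosome adds DNA both to the immunoprecipitate and to the control from which a peak caller estimates its background. Copy number was not measured here, and its part in the values below was not tested.

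Promoter sequences show what a small part of these peaks sit on. Summits within 1 kb of an annotated gene end made up 8.23% of C59 CTCF peaks of chromosome 1 and 11.0% of those of chromosome 11. For each chromosome the 2 promoters printed are those with the strongest WT CTCF peaks by fold among promoters that hold the CTCF core letters and a CTCF summit of both lines. They were chosen after their values were seen. Each sequence is RefSeq's, build GRCm38.p6, from 250 bases before to 50 bases after the annotated start, in the direction of the gene. Capitals mark the core letters of the CTCF motif, searched on both strands as CCA, any 2 bases, AG, any 2 bases and GGC.
Agfg1, chr1:82839210-82839509, plus strand: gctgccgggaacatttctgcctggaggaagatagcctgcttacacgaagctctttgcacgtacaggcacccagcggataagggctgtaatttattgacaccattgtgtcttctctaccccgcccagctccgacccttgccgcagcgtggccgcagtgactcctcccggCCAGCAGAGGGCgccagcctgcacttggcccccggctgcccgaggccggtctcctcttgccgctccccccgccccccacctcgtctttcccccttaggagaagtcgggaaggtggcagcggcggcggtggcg
Nmur1, chr1:86389312-86389611, minus strand: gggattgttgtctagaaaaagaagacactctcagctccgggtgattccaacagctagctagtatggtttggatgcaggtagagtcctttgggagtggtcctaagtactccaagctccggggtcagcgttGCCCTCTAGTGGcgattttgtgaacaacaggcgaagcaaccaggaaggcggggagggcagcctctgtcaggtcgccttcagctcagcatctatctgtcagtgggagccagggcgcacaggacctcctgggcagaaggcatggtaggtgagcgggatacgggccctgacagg
Mgat5b, chr11:116918613-116918912, plus strand: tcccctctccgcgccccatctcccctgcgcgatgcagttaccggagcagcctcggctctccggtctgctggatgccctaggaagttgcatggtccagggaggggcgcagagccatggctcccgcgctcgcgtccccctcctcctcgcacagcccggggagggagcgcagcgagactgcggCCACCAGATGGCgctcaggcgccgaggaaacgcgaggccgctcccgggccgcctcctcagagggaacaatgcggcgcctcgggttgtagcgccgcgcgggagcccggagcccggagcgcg
C1qbp, chr11:70982977-70983276, minus strand: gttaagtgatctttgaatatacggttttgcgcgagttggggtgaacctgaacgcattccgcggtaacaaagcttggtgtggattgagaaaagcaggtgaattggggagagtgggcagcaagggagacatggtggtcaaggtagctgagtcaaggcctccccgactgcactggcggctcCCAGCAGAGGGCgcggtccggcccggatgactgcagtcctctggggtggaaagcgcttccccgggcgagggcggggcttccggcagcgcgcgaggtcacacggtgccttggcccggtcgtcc

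In these windows the summit of the WT CTCF peak lay close to the capitals: at base 183 with the match starting at base 169 in Agfg1, at 148 and 130 in Nmur1, at 169 and 181 in Mgat5b, and at 162 and 179 in C1qbp. The match in Nmur1 read on the opposite strand to the gene. Agfg1 had a CTCF pileup, the stack of fragments at the summit, of 280.7 in C59 and 246 in WT, and Nmur1 had 307.6 in C59 and 271 in WT. On chromosome 11, Mgat5b had 249 in C59 and 268 in WT, and C1qbp had 247 in C59 and 263 in WT. The scales of the lines differ, so the C59 to WT ratio is read against its median at CTCF peaks of the other 16 autosomes. Relative to that median the ratio stood at 1.42 in Agfg1 and 1.41 in Nmur1 on chromosome 1, and at 1.15 in Mgat5b and 1.17 in C1qbp on chromosome 11, so all 4 lay above it. So did 85.9% of all CTCF peaks shared by the lines on chromosome 1 and 72.1% on chromosome 11, so this is no trait of the 4 promoters. The same letters stood in 2.18% of 2014 promoters of chromosome 1 (95% interval 1.59 to 2.92), in 3.10% of 2289 of chromosome 11 (2.43 to 3.90) and in 2.43% of 25623 of the other 16 autosomes (2.25 to 2.63). Among promoters with a C59 CTCF summit they stood in 10.4% on chromosome 1 (5.95 to 16.6), 15.9% on chromosome 11 (10.6 to 22.4) and 14.8% elsewhere (13.1 to 16.7). Intervals in parentheses are exact (Clopper-Pearson, 95%) and speak only to counting error.

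The background at peaks was raised along chromosomes 1 and 11 in C59, and along chromosome 11 to a smaller degree in WT. Background here is the caller's local estimate of the pileup expected without binding, recovered from each peak's pileup and fold. In the C59 CTCF list its median was 5.42 on chromosome 1 and 5.80 on chromosome 11, against 4.00 on the other 16 autosomes. In the WT CTCF list it was 5.22 and 6.09, against 4.98 on the other autosomes. As ratios to the other autosomes, chromosome 1 stood at 1.36 in C59 and 1.05 in WT, and chromosome 11 at 1.45 in C59 and 1.22 in WT.

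The Smc3 lists gave the same picture. The median background of the C59 Smc3 list was 6.00 on chromosome 1 and 6.01 on chromosome 11, against 4.00 elsewhere, which makes ratios of 1.50 on each. The WT Smc3 list had 5.30 on chromosome 1 and 6.35 on chromosome 11, against 5.09 elsewhere, ratios of 1.04 and 1.25. The lists of one line do not give separate measurements of background. Where a CTCF and an Smc3 summit fell on the same base, the ratio of their backgrounds stayed within 2% of its median at 359 of 359 places in C59 and at 626 of 626 in WT. At summits 50 to 100 bases apart it did so in 44.4% of C59 pairs and 45.4% of WT pairs. Background of a line therefore counts as 1 measurement, read at different places.

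Medians of background move in steps, because much of it takes a few values. Of the C59 CTCF peaks, 36.9% stood at about 3.6, the floor of the list, 13.3% at 4 and 10.9% at 5. Means are less affected. The ratio of means was 1.34 in C59 and 1.04 in WT for CTCF on chromosome 1, and 1.42 in C59 and 1.201 in WT on chromosome 11. For Smc3 it was 1.36 in C59 and 1.05 in WT on chromosome 1, and 1.46 in C59 and 1.21 in WT on chromosome 11. Each of the other 16 autosomes lay between 0.975 and 1.03 by this measure over all 4 lists, so that both chromosomes stood outside that range in both lines, chromosome 1 in WT only by a small margin. The floor of each list was taken from its lowest 10% of backgrounds. In C59, 94.8% of chromosome 1 CTCF peaks (94.2 to 95.4) and 97.3% of those of chromosome 11 (96.9 to 97.7) lay more than 5% above it, against 57.1% elsewhere. In WT the shares were 65.1% on chromosome 1 (63.9 to 66.3) and 88.1% on chromosome 11 (87.4 to 88.8), against 60.0% elsewhere.

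**Figure D1:**
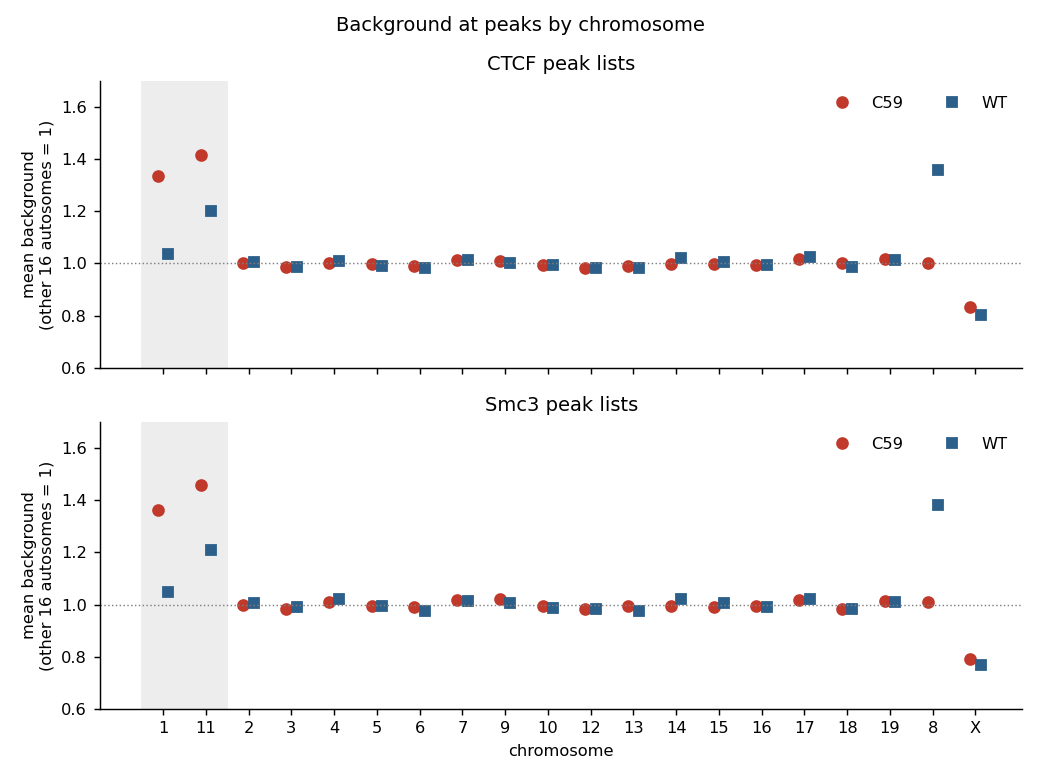
Mean background of the peaks of each chromosome (x axis) as a ratio to the mean over the other 16 autosomes (y axis), for the CTCF lists (top) and the Smc3 lists (bottom), with C59 as circles and WT as squares; each point is 1 library. Chromosomes 1 and 11 are shaded, and in C59 they stand at 1.34 and 1.42 for CTCF, while the 16 autosomes lie between 0.975 and 1.03.

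Of the chromosomes outside this comparison, chromosome 8 had a ratio of mean CTCF background of 1.00 in C59 and 1.36 in WT. Chromosome X had 0.834 in C59 and 0.802 in WT, with 11.4% of its C59 and 6.47% of its WT CTCF peaks above the floor. The rise of chromosome 1 in C59 was thus of the size that chromosome 8 showed in WT.

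The rise covered both chromosomes from end to end in C59. Chromosomes were divided into 5 Mb bins, and a bin with at least 10 peaks counted as raised at 1.2 times the median background of the other 16 autosomes. In the C59 CTCF list 34 of 39 bins of chromosome 1 and 25 of 25 of chromosome 11 were raised, against 0.246% of the bins of the other autosomes. In the C59 Smc3 list 36 of 37 and 25 of 25 bins were raised, against 3.39%. In the WT CTCF list 2 of 39 bins of chromosome 1 and 16 of 25 of chromosome 11 were raised, and in the WT Smc3 list 2 of 39 and 15 of 25, against 0% of bins elsewhere in each. With means in place of medians, 32 of 39 and 25 of 25 bins were raised for C59 CTCF, against 0.246%, and 34 of 37 and 23 of 25 for C59 Smc3, against 0.261%. For WT CTCF 0 of 39 and 10 of 25 were then raised, against 0%, and for WT Smc3 0 of 39 and 10 of 25, against 0.248%. The chromosomes were chosen by this contrast, so nothing further is read from these counts than where along the chromosome the bins lie.

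In C59, every bin measured on both chromosomes lay above 1 in the CTCF list (39 and 25 bins) and in the Smc3 list (37 and 25 bins). Of the bins of the other 16 autosomes, 155 of 406 lay above 1 in the C59 CTCF list and 163 of 383 in the C59 Smc3 list. Split into 3 equal stretches, first, middle and last, chromosome 1 had median bin ratios of 1.35, 1.25 and 1.38 in the C59 CTCF list, and 0.961, 1.03 and 1.07 in the WT CTCF list. The stretches of chromosome 11 had 1.44, 1.44 and 1.48 in C59 and 1.14, 1.22 and 1.22 in WT. No stretch of either chromosome fell to the level of the other autosomes in C59.

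The 5 bins of chromosome 1 under 1.2 in the C59 CTCF list lay at 15 to 20 Mb, 25 to 30 Mb, 95 to 100 Mb, 110 to 115 Mb and 145 to 150 Mb, with 23 to 92 peaks each. Their ratios ran from 1.05 to 1.14 in C59 and from 0.857 to 0.865 in WT, so these bins were low for chromosome 1 in both lines. Their WT medians lay at or near the floor of the WT CTCF list, 4.27, and cannot show how low they were. On the other autosomes the lower quartile of WT CTCF bins was 0.873. At the CTCF peaks that both lines share, the C59 to WT pileup in the same 5 bins was 1.24 to 1.38 times that of the other autosomes. The highest bin of chromosome 1 in the C59 CTCF list was 130 to 135 Mb, at 1.50 in C59 and 1.22 in WT. These are stepped medians: by means the highest C59 bin was 85 to 90 Mb, at 1.49. That bin holds the local peaks of high background in and beyond the Ugt1a genes, described below. Chromosome 11 had its lowest bin at 35 to 40 Mb, at 1.25 in C59 and 0.978 in WT, and its highest at 0 to 5 Mb, at 1.50 in C59 and 1.26 in WT.

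**Figure D2:**
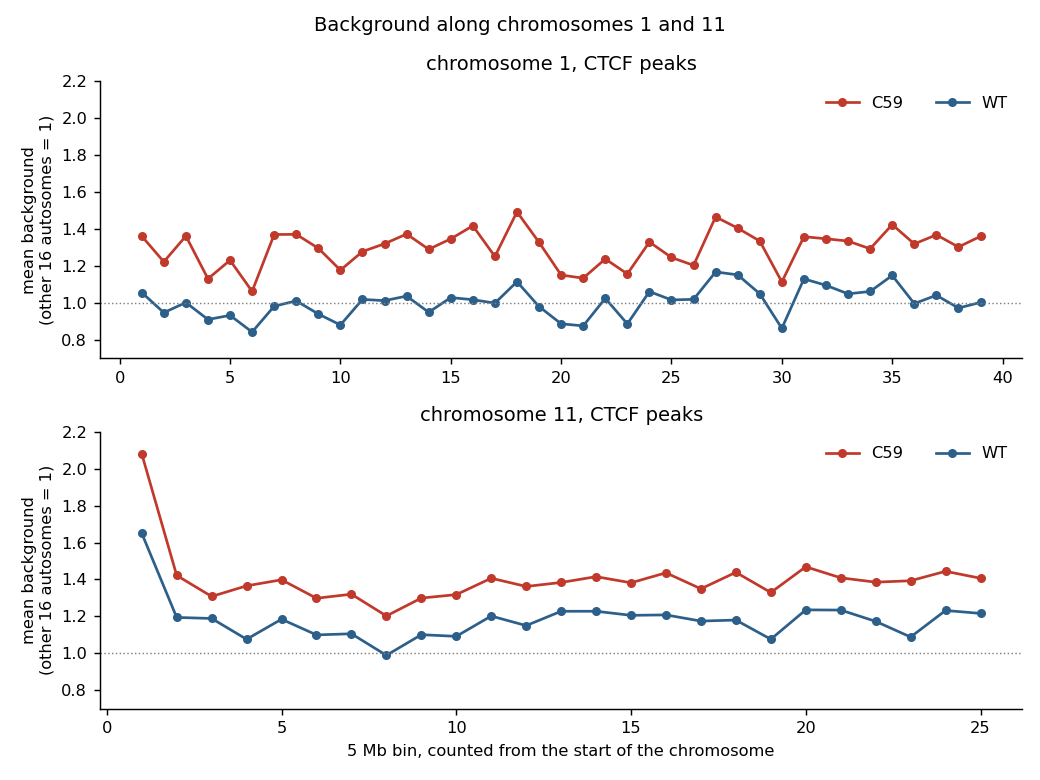
Mean background of CTCF peaks in 5 Mb bins (x axis, bin number from the start of the chromosome) as a ratio to the mean over the other 16 autosomes (y axis), for chromosome 1 (top) and chromosome 11 (bottom), with C59 in red and WT in blue. The C59 line runs above the WT line in each bin, from 1.06 to 1.49 on chromosome 1, and the high first bin of chromosome 11, at 2.08 in C59 and 1.65 in WT, holds the peaks of Sfi1. The highest C59 bin of chromosome 1 holds the peaks in and beyond the Ugt1a genes.

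Part of the first bin of chromosome 11 is a local feature seen in both lines. Sfi1, which encodes a centrosomal protein that binds centrin, held 5 peaks of background over 20 in the C59 CTCF list and 5 in the WT CTCF list, between chr11:3185563 and chr11:3197762 in build mm10. Their backgrounds were 70.8 to 121.9 in C59 and 72.6 to 147.8 in WT, and their folds 2.00 to 3.19 in C59 and 2.56 to 3.94 in WT. On chromosome 1 a stretch in and beyond the Ugt1a genes, which encode glucuronidation enzymes, held 7 C59 CTCF peaks of such background, at 21.5 to 33.0, and 2 WT CTCF peaks, at 20.9 and 28.7. The whole C59 CTCF list held 18 peaks of background over 20, with 9 on chromosome 1, 5 on chromosome 11 and 2 on the other 16 autosomes. The whole WT CTCF list held 14, with 3, 6 and 1 in the same order. The limit of 20 was chosen after the values were seen. Without all peaks over it the ratio of mean CTCF background was 1.33 in C59 and 1.04 in WT on chromosome 1, and 1.40 in C59 and 1.19 in WT on chromosome 11.

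The pileup at peaks of both lines moved with the background. Pileup stacks all fragments at the summit, so it does not measure binding alone. CTCF peaks present in both lines paired 5462 times on chromosome 1, 6502 times on chromosome 11 and 60684 times on the other 16 autosomes. The lists were scaled differently, so a C59 to WT ratio has meaning only against the other autosomes, where its median was 0.805 for CTCF pileup and 0.571 for Smc3 pileup. Against these, CTCF pileup stood at 1.29 on chromosome 1 and 1.15 on chromosome 11, and Smc3 pileup at 1.35 (2022 pairs) and 1.19 (2229 pairs). Single autosomes of the 16 ran from 0.968 to 1.02 for CTCF and from 0.972 to 1.03 for Smc3. The middle 50% of the CTCF pairs had pileup ratios of 0.898 to 1.16 on chromosome 1 and 0.787 to 1.03 on chromosome 11, against 0.683 to 0.903 elsewhere. A pileup ratio at least 1.2 times the median elsewhere was found in 64.0% of CTCF pairs of chromosome 1 and 40.2% of chromosome 11, against 13.4%, and in 72.7% and 48.2% of Smc3 pairs, against 22.3%.

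Fold enrichment, which divides the pileup by the background, differed little. Its C59 to WT ratio relative to the other autosomes was 1.04 on chromosome 1 and 0.997 on chromosome 11 for CTCF, and 1.06 and 1.02 for Smc3. Single autosomes of the 16 ran from 0.983 to 1.01 for CTCF and from 0.964 to 1.03 for Smc3, so chromosome 1 lay just above them and chromosome 11 among them. The median background ratio stood at 1.24 on chromosome 1 and 1.14 on chromosome 11 for CTCF pairs, below the pileup ratio on both, and at 1.29 and 1.17 for Smc3 pairs. As a ratio of sums over the pairs, which steps less and was chosen after the values were seen, it stood at 1.31 and 1.18 for CTCF pairs and at 1.34 and 1.204 for Smc3 pairs, so whether background moved more or less than pileup depends on this choice. It is computed from pileup and fold, so the 3 quantities are not independent. C59 peaks were shorter than their WT partners, but less so on these chromosomes. For CTCF the median length ratio was 0.958 on chromosome 1 and 0.908 on chromosome 11, against 0.874 elsewhere. For Smc3 it was 0.796 and 0.744, against 0.702. Relative to the other autosomes, this ratio stood at 1.097 and 1.04 for CTCF and at 1.13 and 1.06 for Smc3. Chromosome 8 had the opposite sign, with pileup ratios of 0.745 for CTCF and 0.713 for Smc3.

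**Figure D3:**
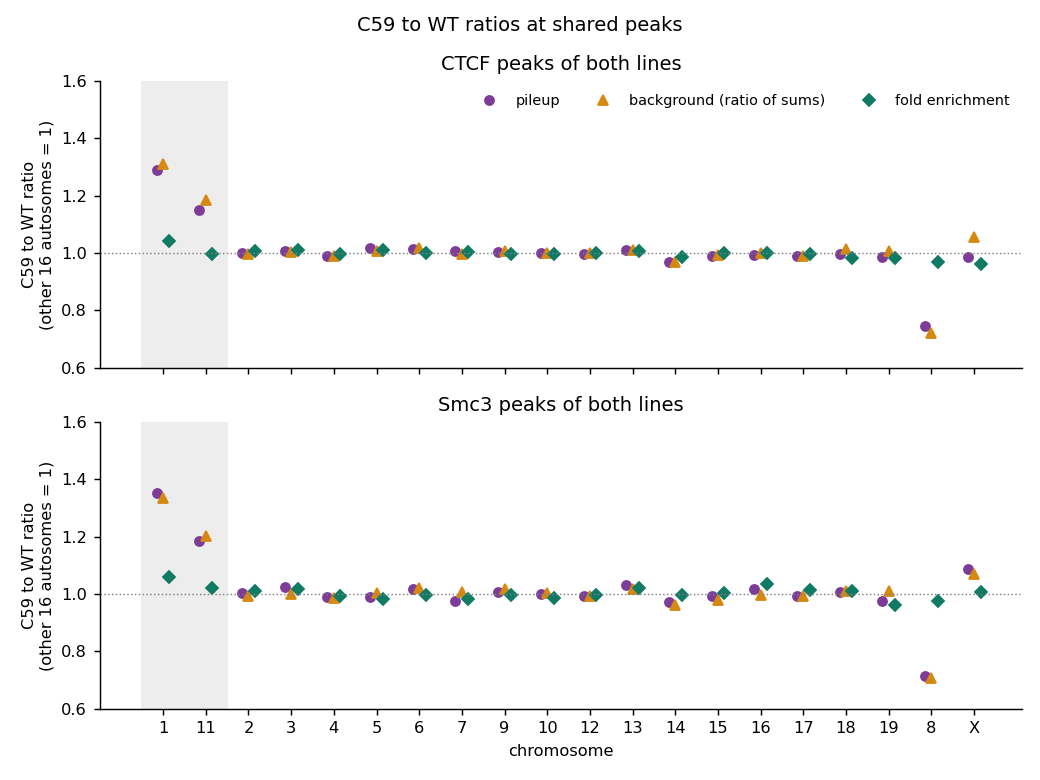
C59 to WT ratios at peaks of both lines for each chromosome (x axis), divided by the value of the other 16 autosomes (y axis), for CTCF (top) and Smc3 (bottom); circles are median pileup, triangles background as a ratio of sums and diamonds median fold. On chromosome 1 CTCF pileup and background stand at 1.29 and 1.31 while fold stands at 1.04, and on chromosome 11 they stand at 1.15, 1.18 and 0.997.

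The pileup ratio was spread along both chromosomes. In 5 Mb bins of CTCF pairs, 35 of 39 bins of chromosome 1 and 5 of 25 of chromosome 11 reached 1.2, against 0% of bins elsewhere. All bins lay above 1, from 1.17 at 135 to 140 Mb to 1.42 at 40 to 45 Mb on chromosome 1, and from 1.08 at 10 to 15 Mb to 1.295 at 35 to 40 Mb on chromosome 11. Of the bins of the other autosomes 180 of 406 lay above 1, and the highest reached 1.12. The 3 stretches of chromosome 1 had medians of 1.35, 1.31 and 1.27, and those of chromosome 11 1.14, 1.16 and 1.14. For Smc3 pairs, 34 of 37 and 10 of 25 bins reached 1.2, against 1.31% of bins elsewhere, and the stretches had 1.44, 1.39 and 1.301 on chromosome 1 and 1.19, 1.21 and 1.18 on chromosome 11. On chromosome 1 the last stretch was thus the lowest for both proteins. Across bins, CTCF pileup ratio and WT CTCF background had a Spearman's rho of -0.47 on chromosome 1 (39 bins), -0.42 on chromosome 11 (25 bins) and -0.24 on the other autosomes (406 bins). For Smc3 rho was -0.41 (37 bins), -0.44 (25 bins) and -0.45 (382 bins). The WT library enters both measures, neighbouring bins share a chromosome, and this is a description.

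**Figure D4:**
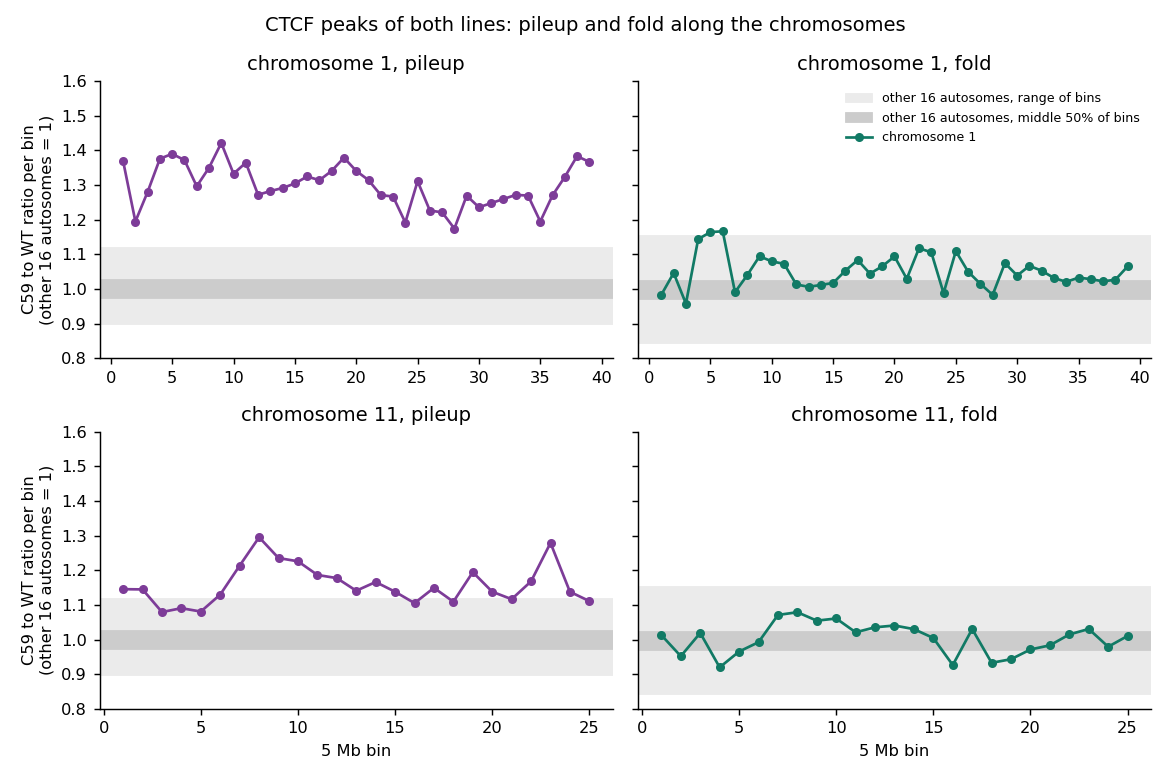
C59 to WT ratio at CTCF peaks of both lines in 5 Mb bins (x axis, bin number), divided by the median of the other 16 autosomes (y axis), for pileup (left) and fold (right) on chromosome 1 (top) and chromosome 11 (bottom); shaded bands give the range and the middle 50% of the bins of the other 16 autosomes. Pileup lies above the band of other bins along all of chromosome 1, from 1.17 to 1.42, while fold stays between 0.957 and 1.17.

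More of the peaks of chromosomes 1 and 11 were called in C59 than of the other autosomes. The C59 CTCF list was 93.5% as long as the WT list on chromosome 1 and 87.1% on chromosome 11, against 80.1% to 84.7% on single autosomes of the 16. For Smc3 the shares were 67.2% and 62.4%, against 49.7% to 56.4%. Of WT CTCF peaks, 87.3% on chromosome 1 (86.5 to 88.1) and 82.7% on chromosome 11 (81.9 to 83.5) overlapped a C59 peak by at least 1 base, against 79.6% elsewhere. Of WT Smc3 peaks the shares were 64.7% (63.0 to 66.4) and 59.5% (57.9 to 61.1), against 52.3%.

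The gap for CTCF lay in weak peaks, and that for Smc3 reached into stronger ones. In the weakest decile of WT CTCF fold, 42.2% of peaks of chromosome 1 (38.3 to 46.2) and 32.8% of chromosome 11 (29.9 to 35.8) were found in C59, against 23.4% elsewhere (22.4 to 24.4). In the third decile the shares were 78.0% and 70.2%, against 57.4%. From the seventh decile up, all WT CTCF peaks of both chromosomes and of the other autosomes were found. For WT Smc3 peaks the shares in the weakest decile were 14.7% on chromosome 1 (10.9 to 19.1) and 13.9% on chromosome 11 (10.9 to 17.3), against 8.75% elsewhere (7.84 to 9.74). In the sixth decile they were 82.5% (77.9 to 86.5) and 69.8% (64.5 to 74.7), against 57.7% (56.1 to 59.3), and in the eighth 97.3% and 96.4%, against 87.8%. Where C59 has no peak, the signal missed the authors' threshold, and the protein need not have been absent.

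**Figure D5:**
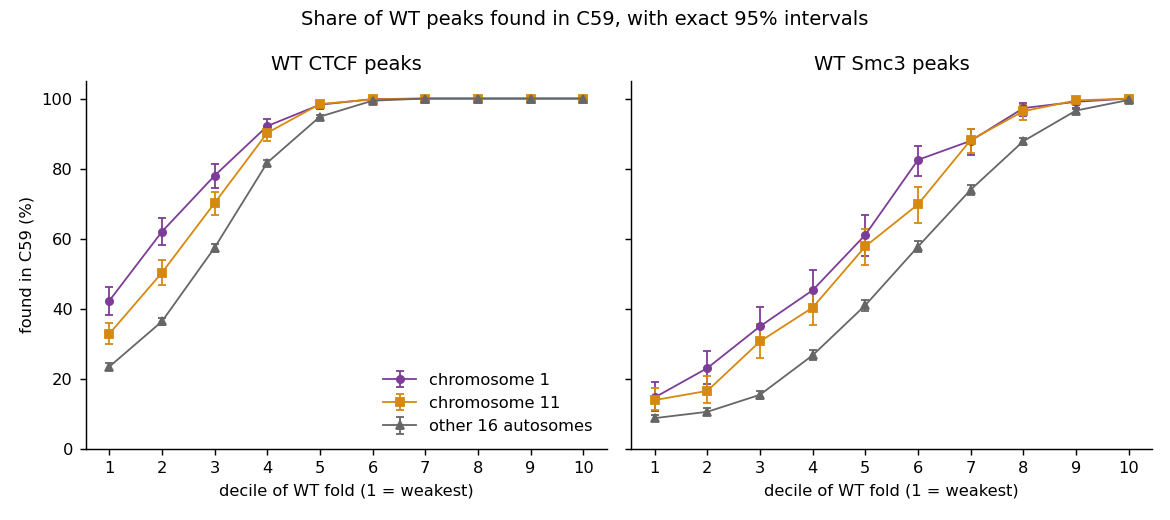
Share of WT peaks overlapped by a C59 peak (y axis, percent, with exact 95% intervals) by decile of WT fold in the list (x axis, 1 the weakest), for CTCF (left) and Smc3 (right), on chromosome 1, chromosome 11 and the other 16 autosomes. In the weakest CTCF decile the shares are 42.2%, 32.8% and 23.4%, and all 3 CTCF lines meet at 100% from the seventh decile; for Smc3 the lines lie farthest apart in the middle deciles, at 82.5%, 69.8% and 57.7% in the sixth.

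In the lists as deposited, peaks of C59 without a WT partner were also more common on these chromosomes. Of C59 CTCF peaks, 94.2% on chromosome 1 (93.5 to 94.8) and 96.1% on chromosome 11 (95.6 to 96.5) were found in WT, against 97.4% elsewhere. Of C59 Smc3 peaks, 96.7% (95.9 to 97.4) and 96.3% (95.4 to 97.0) were found, against 98.4%. The C59 CTCF peaks with no WT partner numbered 342 on chromosome 1 and 272 on chromosome 11, with median folds of 4.00 and 3.85, against 11.3 and 10.7 for those found. They were thus weak peaks in the main. Weighted to the fold of the other autosomes, 95.3% of C59 CTCF peaks of chromosome 1 and 97.1% of chromosome 11 were found in WT, against 97.4%, so on chromosome 11 little of the gap remained. With peaks at a q of 1e-10 or less, chromosome 11 had 97.3% for CTCF and 98.5% for Smc3, against 97.6% and 98.7%. Chromosome 1 then had 94.4% and 96.5%. The order for Smc3 depended on the overlap asked for. With at least 50% of both peaks overlapping, 90.4% of C59 Smc3 peaks of chromosome 1 and 85.0% of chromosome 11 were found, against 85.2% elsewhere, so chromosome 1 then stood above the other autosomes.

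A peak of given fold carried a smaller p-value on these chromosomes in C59. Among C59 CTCF peaks of fold 4 to 5, the median −log10 p was 10.8 on chromosome 1 and 11.0 on chromosome 11, against 9.59 elsewhere, and their median pileups were 26.0 and 26.9, against 20.2. Among C59 Smc3 peaks of that fold it was 12.3 and 12.7, against 10.2. In WT CTCF it was 11.2 on chromosome 1 and 12.1 on chromosome 11, against 11.0, and in WT Smc3 11.4 and 12.4, against 11.1. Chromosome 1 thus stood near the other autosomes in WT and chromosome 11 stood above them in both lines, as with background. At a given fold a higher background means a higher pileup, and so a smaller p-value. These p-values therefore restate the background and are no separate result.

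CTCF and Smc3 kept company on these chromosomes much as elsewhere. In C59, 98.5% of Smc3 peaks of chromosome 1 (97.9 to 99.0) and 96.2% of chromosome 11 (95.3 to 96.9) overlapped a CTCF peak, against 98%, and in WT 96.0% (95.2 to 96.6) and 94.5% (93.7 to 95.2), against 95.1%. In the other direction, 34.7% of C59 CTCF peaks of chromosome 1 (33.5 to 36.0) and 31.8% of chromosome 11 (30.7 to 33.0) carried an Smc3 peak, against 29.9% and a range of 26.5% to 32.1% over single autosomes of the 16. In WT the shares were 46.5% and 43.4%, against 44.3% and a range of 41.6% to 46.5%. Chromosome 1 stood above the range in C59. In WT it stood barely above it, at 46.54% against a highest of 46.51%.

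The chromosomes differ in how densely they are occupied, in both lines. Chromosome 11 had 58.0 CTCF peaks per Mb in C59 and 66.6 in WT, against 32.3 in C59 and 39.1 in WT on the other autosomes. It also held 13.5 protein-coding genes per Mb, against 8.57. Chromosome 1 had 30.5 CTCF peaks per Mb in C59 and 32.6 in WT, with 6.26 coding genes per Mb. Per coding gene, chromosome 11 had 4.28 C59 and 4.92 WT CTCF peaks and chromosome 1 had 4.87 and 5.21, against 3.77 and 4.56. Summits within 1 kb of an annotated gene end made up 8.23% of C59 and 8.33% of WT CTCF peaks of chromosome 1, 11.0% and 11.0% of those of chromosome 11, and 9.32% and 9.34% elsewhere. These shares did not differ between the lines beyond their counting intervals.

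Genes of developmental control, self-renewal and mitosis were followed on both chromosomes, 14 on chromosome 1 and 25 on chromosome 11. Peaks with a summit inside a gene or up to 10 kb from it were assigned to that gene, and the WT peak of highest fold was followed into C59, a choice that favours places of low WT background. On chromosome 1 the CTCF peak was found in C59 for 14 of 14 genes, and its pileup ratio exceeded the median of the other autosomes in 13, where 50% of pairs elsewhere do by construction and 85.9% of all CTCF pairs of chromosome 1 did. On chromosome 11 it was found for 24 of 25 genes and exceeded that median in 23, where 72.1% of all CTCF pairs of chromosome 11 did. The Smc3 peak was found for 10 of 12 genes of chromosome 1, with the ratio above the median in 10, and for 15 of 24 genes of chromosome 11, with the ratio above it in 8, where 92.9% of all Smc3 pairs of chromosome 1 and 79.8% of those of chromosome 11 stood above it. Of all WT peaks, 87.3% on chromosome 1 and 82.7% on chromosome 11 were found in C59 for CTCF, and 64.7% and 59.5% for Smc3. The followed peak is the strongest of its gene, and stronger WT peaks were found more often on both chromosomes. Several of these genes share a peak, so the counts are not independent.

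Among genes of self-renewal on chromosome 1, Lefty1 and Lefty2 encode inhibitors of Nodal signalling. Lefty1 had a CTCF pileup of 161.5 in C59 and 149 in WT at its strongest peak, with a background of 5.25 in C59 and 6.96 in WT. Lefty2 had 181.7 in C59 and 171 in WT. Nr5a2, an orphan nuclear receptor that regulates Pou5f1, had 245.1 in C59 and 219 in WT. Tfcp2l1, a transcription factor of the naive state, had 71.1 in C59 and 88 in WT, close to the genome-wide ratio. Its Smc3 peak in WT, at a pileup of 25, had no partner in C59, and the same held for Lefty1, at 23.

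Wnt6 and Ihh, which encode secreted signals, Epha4, an ephrin receptor, and Pax3, a transcription factor of neural crest and muscle, lie within a few megabases of each other on chromosome 1. Wnt6 had a CTCF pileup of 271.1 in C59 and 283 in WT, Ihh 269.2 in C59 and 247 in WT, and Epha4 278.8 in C59 and 245 in WT. Pax3 had 83.6 in C59 and 106 in WT and was the 1 gene of the 14 below the median ratio. Its background was 14.0 in C59 and 6.96 in WT, and its fold 5.64 in C59 and 13.4 in WT. Smc3 pileup at Epha4 was 84.1 in C59 and 115 in WT, at Ihh 34.7 in C59 and 54 in WT, and Pax3 had no Smc3 peak in either list.

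Genes of mitosis on chromosome 1 had strong CTCF peaks in both lines. Kif14, a kinesin of cytokinesis, had a CTCF pileup of 320.1 in C59 and 303 in WT, at chr1:136524729-136525585 inside the gene. Nek2, a centrosomal kinase, had 297.1 in C59 and 264 in WT. Sgo2a, which protects centromeric cohesin, had 273 in C59 and 271 in WT, and Cenpf, a kinetochore protein, 180.7 in C59 and 159 in WT. The imprinted gene Zdbf2 had 233.6 in C59 and 213 in WT. Csrp1, which encodes a LIM-domain protein, lay next to the strongest WT Smc3 peak of chromosome 1 by fold, with a pileup of 138.9 in C59 and 236 in WT.

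On chromosome 11 the Hoxb genes, homeobox regulators of the body axis, had fewer CTCF peaks in C59 at 8 of 10 genes. Hoxb7 had 3 peaks in C59 and 6 in WT, Hoxb8 2 in C59 and 5 in WT, Hoxb9 3 in C59 and 5 in WT, and Hoxb4 and Hoxb5 had the same number in both lines. Neighbouring genes share peaks in these counts. The C59 CTCF list was also shorter as a whole, at 87.1% of the WT list on chromosome 11 and 82.8% on the other autosomes. The share of all genes with fewer C59 peaks was not computed, so the count is not read as particular to Hoxb. One peak at chr11:96302705-96303739 was the strongest for Hoxb3, Hoxb5 and Hoxb6, with a CTCF pileup of 262.4 in C59 and 264 in WT. Hoxb4 had 235.5 in C59 and 266 in WT, Hoxb7 and Hoxb8 shared a peak of 241.3 in C59 and 245 in WT, and Hoxb9 had 229.8 in C59 and 224 in WT. Hoxb13 had 91.3 in C59 and 84 in WT, and Hoxb2 114.4 in C59 and 138 in WT. Hoxb1 was the 1 gene without a C59 partner, its WT peak having a pileup of 30 and a fold of 5.15. Smc3 pileup at the peak of Hoxb3, Hoxb5 and Hoxb6 was 55.6 in C59 and 94 in WT.

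Trp53, the p53 gene, had a CTCF pileup of 376.9 in C59 and 359 in WT, the highest of the genes followed in both lines. Its background was 17.0 in C59 and 7.17 in WT, so that fold was 21.0 in C59 and 44.0 in WT. Brca1, a gene of homologous recombination, had a CTCF pileup of 100.0 in C59 and 112 in WT. Stat3, the transcription factor through which LIF acts, had 315.3 in C59 and 313 in WT, and Socs3, an inhibitor of the same pathway, 292.2 in C59 and 284 in WT. Smc3 pileup was 82.6 in C59 and 145 in WT at Stat3 and 83.4 in C59 and 164 in WT at Socs3.

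The mitotic genes Top2a, a topoisomerase, and Aurkb, a kinase of the chromosomal passenger complex, had CTCF pileups of 117.3 in C59 and 121 in WT, and of 276.9 in C59 and 270 in WT. Sox9, a regulator of cartilage and testis, had 225.9 in C59 and 228 in WT. The imprinted genes Grb10 and Commd1 had 282.6 in C59 and 283 in WT, and 197.1 in C59 and 239 in WT. Zrsr1, which lies inside Commd1, had 158.6 in C59 and 169 in WT. The alpha globin genes Hba-a1, Hba-a2 and Hba-x had as their strongest 1 peak of 100.9 in C59 and 112 in WT, on a background of 4.00 in C59 and 4.27 in WT, near the floor of each list. Il3, a cytokine gene, had 277.8 in C59 and 264 in WT, and Fgf11, a fibroblast growth factor homologue, had 152.9 in C59 and 200.0 in WT and fell below the median ratio.

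The strongest peaks of each chromosome by WT fold were present in both lines. On chromosome 1 the strongest CTCF peak lay inside Chpf, which encodes a chondroitin polymerizing factor, at chr1:75476871-75478567, with a pileup of 367.2 in C59 and 360 in WT and a fold of 64.0 in C59 and 60.2 in WT. The next was inside Nhej1, a gene of DNA end joining, with 336.5 in C59 and 307 in WT. On chromosome 11 the strongest lay nearest to Nmur2, a neuromedin U receptor, at chr11:55991471-55993393, with 357.6 in C59 and 360 in WT and a fold of 39.8 in C59 and 56.1 in WT. Those nearest to Slc16a11 and Rfng had 355.7 in C59 and 371 in WT, and 384.5 in C59 and 381 in WT.

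Peaks of 1 line alone were far weaker. The strongest WT CTCF peak of chromosome 1 with no C59 partner, inside Ndufs1, had a pileup of 56 and a fold of 9.89, and that of chromosome 11, nearest to Cobl, had 53 and 10.3. The strongest C59 CTCF peaks with no WT partner, nearest to Glrp1 on chromosome 1 and to Smim23 on chromosome 11, had pileups of 43.3 and 48.1 and folds of 8.23 and 9.09. Among Smc3 peaks of both lines, the strongest of chromosome 11 lay inside Col1a1, a collagen gene, with a pileup of 122.7 in C59 and 208 in WT. Psen2, nearest to a peak of chromosome 1, had an Smc3 pileup of 155.9 in C59 and 236 in WT.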

How the data were processed

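Of 8 libraries, the 4 for CTCF and Smc3 had peak lists and were used. Peak callers, aligners and builds are listed without role or order in the submitters' processing notes, as MACS2 2.1.0.20140616, Bowtie 0.12.8, deepTools 2.4.1, FastQC 0.10.1, CASAVA and mm10. The control, threshold and read depth behind each list are not given in the sources used here. The pileup signal, p-value, q-value, and fold, a ratio of pileup to background, are the authors' deposited values, as are peak length and summit position in bp, which were counted from 1. For the Smc3 libraries the antibody label, Smc3, was followed; the labels' extraction protocol speaks of Rad21.

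Background at a summit is the sum of pileup and 1, over fold, less 1. The floor of a list is the median of its lowest 10% of background. Overlap needed 1 bp, and pairs joined overlapping peaks of both lines. No test and no SD could be given, for want of replicates. Gene positions and promoters came from RefSeq, GRCm38.p6, whose chromosomes are those of mm10; no genome sequence was used, so promoters replaced the planned windows at summits. Named genes were 39 listed genes of both chromosomes; named peaks were, per chromosome and protein, the 3 strongest WT peaks of both lines and the 2 strongest of each line alone, of which not all are described. Members, lists and limits were chosen with earlier results of these data known. Python 3.11.15, numpy 2.4.6, pandas 2.3.3, scipy 1.17.1 and matplotlib 3.10.9 were used, and the computations were tested on simulated peaks. Alternatives covered the centre, floor, threshold, overlap, bins and list length.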

Additional observations from a re-analysis of the deposited data

How the results depend on the processing

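Each value rests on 1 library of unknown depth, so only counting error is known. No paired analysis was possible because each group held 1 library and no test was made. A ratio counted as unmoved within 10% and a share within its 95% interval. That tolerance is wider than the background rise of chromosome 1 in WT. For WT CTCF this ratio was 1.00 by the 90th percentile, against all other autosomes and in the upper 50% by fold. With equal numbers of peaks it was 1.04. For WT Smc3 it was 1.11 by the 90th percentile and 1.00 against all other autosomes. Under the alternatives 162 values did not move, 58 moved, and no ratio turned its direction. With peaks above the floor alone, which leaves out most low backgrounds by construction, the background ratio of C59 CTCF was 1.16 on chromosome 1 and 1.26 on chromosome 11, that of C59 Smc3 1.201 and 1.24, and that of WT CTCF on chromosome 11 1.04. With equal numbers of peaks in each list, C59 CTCF had 1.50 and 1.62, and the upper 50% by fold gave 1.50 on chromosome 1. The cause of the last 3 was not tested. Bins were raised by construction less often at a ratio of 1.3. Then 64.1% of C59 CTCF and 81.1% of C59 Smc3 bins of chromosome 1 were raised, 0% of its WT CTCF and 0% of its WT Smc3 bins, and on chromosome 11 0% of WT CTCF and 24% of WT Smc3 bins. At 1.1 the shares were 100% for C59 Smc3 and 20.5% for WT Smc3 on chromosome 1 and 92% for WT Smc3 on chromosome 11. With 10 Mb bins, or 20 peaks per bin, 100% of C59 Smc3 bins of chromosome 1 were raised. Means within bins gave 0% for WT CTCF and 0% for WT Smc3 on chromosome 1 and 40% for WT CTCF on chromosome 11. At a q of 1e-10 or less, C59 Smc3 peaks per Mb stood at 1.23 on chromosome 1 and 2.17 on chromosome 11, relative to the other autosomes. That threshold put the share found in WT at 97.3% for C59 CTCF and 98.5% for C59 Smc3 on chromosome 11, and the share found in C59 at 88.6% and 84.5% for WT CTCF on chromosomes 1 and 11 and at 66.4% for WT Smc3 on chromosome 1. On the other autosomes it put the share found in WT at 97.6% for C59 CTCF and 98.7% for C59 Smc3. Their share found in C59 was 81.8% for WT CTCF and 48.4% for WT Smc3. Smc3 peaks with CTCF then made up 99.7% and 99.4% in C59 and 99.8% and 99.3% in WT. With overlap of 50% of both peaks the shares fell by construction, in the order chromosome 1 and chromosome 11: C59 CTCF in WT 91.6% and 91.8%, WT CTCF in C59 85.6% and 80.0%, C59 Smc3 in WT 90.4% and 85.0%, WT Smc3 in C59 60.7% and 53.0%, Smc3 with CTCF 57.9% and 45.8% in C59 and 69.1% and 61.8% in WT. The other autosomes had 93.0% for C59 CTCF in WT, 77.0% for WT CTCF in C59, 85.2% for C59 Smc3 in WT and 45.6% for WT Smc3 in C59. With equal numbers of peaks the shares on chromosomes 1 and 11 were 82.4% and 90.8% for C59 CTCF in WT, 97.1% and 96.1% for WT CTCF in C59, 77.0% and 81.6% for C59 Smc3 in WT and 92.6% and 88.6% for WT Smc3 in C59. The other autosomes then had 92.3%, 91.2%, 85.2% and 83.1%. At the same distribution of fold, C59 CTCF in WT had 95.3% and 97.1%, WT CTCF in C59 84.4% on chromosome 11, C59 Smc3 in WT 97.6% and WT Smc3 in C59 61.7%, both on chromosome 11. The mean without background over 20 and the ratio of sums were chosen after seeing the data and moved nothing.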
